A study of Mus musculus with 12 samples.

Results

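The 8 genes described here oxidize, excise or read methylated cytosine: the dioxygenases Tet1, Tet2 and Tet3, the glycosylases Tdg and Mbd4, and the methyl-CpG-binding proteins Mbd1, Mbd2 and Mbd3. They were chosen by name, and each symbol matched 1 of the 55487 Ensembl gene IDs counted. Their RNA was measured in whole right thoracic mammary fat pads of female C57BL/6 mice, an inbred laboratory strain, at postnatal day 84. The mice had been given folic acid at 5 mg/kg (6 libraries) or 1 mg/kg (6 libraries) in juvenile and peri-pubertal life, and were sampled 4 weeks after the supplementation. No transgene, deletion or further agent is named for either group, and no group without added folic acid was analysed here. The comparison asks whether the dose taken early in life is still seen in the levels of these genes. Nothing in the labels ties each library to its own animal, so p-values measure the spread between these samples, which may be technical.

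DNA methylation places a methyl group on cytosine in CpG pairs, and the methyl groups come through the folate and methionine cycles. TET enzymes use oxygen, iron and 2-oxoglutarate to oxidize methylcytosine stepwise, and TDG removes the most oxidized forms so that base excision repair can put back plain cytosine. MBD1, MBD2 and MBD4 bind methylated CpG through a shared domain. MBD3 has the same fold but binds methylated CpG poorly in mammals, and MBD2 and MBD3 are alternative subunits of the NuRD remodelling and deacetylase complex. MBD4 carries a glycosylase that removes thymine or uracil opposite guanine.

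RefSeq promoters (GRCm38.p6) were available for 6 of the 8 genes, the exceptions being Mbd1 and Mbd2. Over the 200 bases from 250 to 51 before the start, the number of CpG pairs was 41 for Tet2, 20 for Mbd4, 14 for Tdg, 10 for Tet1, 9 for Mbd3 and 8 for Tet3, against a median of 4 over 32851 promoters. As many as in Tet2 were found in 0.0761% of all promoters, and as many as in Mbd4 in 9.50%. The windows of Tet1, Tet2 and Tet3 belong to starts inside the gene spans of the GENCODE annotation, not at their 5′ ends, and 100 bases of the Tet1 window and 174 of the Tet3 window are exonic there. The Mbd4 window lies upstream of its gene and holds 122 exonic bases. The windows of Tet2, Tdg and Mbd3 overlap no annotated exon and are printed 5′ to 3′ on the gene's strand, with CpG pairs in capitals. They show a CpG-dense, an intermediate and a CpG-poorer start.
Tet2, chr3:133544441-133544640, minus strand: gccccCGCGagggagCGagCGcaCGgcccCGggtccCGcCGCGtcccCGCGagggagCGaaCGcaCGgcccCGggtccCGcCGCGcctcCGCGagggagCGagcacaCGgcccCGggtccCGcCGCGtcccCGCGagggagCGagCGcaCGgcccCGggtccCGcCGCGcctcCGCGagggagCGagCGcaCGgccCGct
Tdg, chr10:82629588-82629787, plus strand: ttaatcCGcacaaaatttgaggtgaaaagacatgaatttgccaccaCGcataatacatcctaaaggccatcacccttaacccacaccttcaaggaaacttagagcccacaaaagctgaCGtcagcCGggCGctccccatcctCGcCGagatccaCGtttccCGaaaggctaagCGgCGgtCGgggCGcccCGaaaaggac
Mbd3, chr10:80399582-80399781, minus strand: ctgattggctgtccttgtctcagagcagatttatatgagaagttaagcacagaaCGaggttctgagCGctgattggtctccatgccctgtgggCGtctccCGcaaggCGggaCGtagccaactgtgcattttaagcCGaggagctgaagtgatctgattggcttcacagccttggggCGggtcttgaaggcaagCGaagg
The Tet2 window is 84.5% G and C and is built of tandem copies. Its longest exactly repeated stretch is 43 bases, and a repeat as long occurs in 0.307% of all windows. The Mbd3 window holds CCAAT 3 times and the Mbd4 window once, counting both strands, and the other 4 windows hold none, against 28.4% of all promoters with at least 1. The GC box GGGCGG, on either strand, occurs once each in the windows of Tet1, Mbd3 and Mbd4 and in 24.6% of all promoters. No window of the 6 holds CACGTG, which 4.34% of all promoters do. A match is a string of letters and not a measured binding site.

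The 8 genes lie on 4 chromosomes in GRCm38 (GENCODE annotation), and all are protein coding. Tet1 spans chromosome 10 from 62804570 to 62908996 on the minus strand, Tet2 chromosome 3 from 133463679 to 133545139 (minus) and Tet3 chromosome 6 from 83362373 to 83459084 (minus). Tdg lies on chromosome 10 from 82629828 to 82650799 (plus) and Mbd4 on chromosome 6 from 115840697 to 115853371 (minus). Mbd1 and Mbd2 lie on chromosome 18, at 74267605 to 74282732 and 70568189 to 70626131, both on the plus strand. Mbd3 is on chromosome 10 from 80392539 to 80399550 (minus). Exons of other genes cover 6.83% of the exonic bases of Tdg (Glt8d2, opposite strand), 5% of Mbd4 and 0.255% of Tet2 (both by antisense transcripts with at most 4 reads in any library). Reads in these bases are uncertain without strand. Tdg also has a processed pseudogene, Tdg-ps, which held 0 to 2 reads per library, and reads that match both copies would not have been counted.

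Libraries held 48.2 to 75.3 M gene-assigned reads (M, mega). Mitochondrial rRNA took 39.2% to 59.5% of them. Reads aligned outside annotated genes made up 5.58% to 26.6% of all reads tallied, with a mean of 11.8 ± 5.43% in the 5 mg/kg group and 15.1 ± 6.61% in the 1 mg/kg group (SD, n = 6 each, exact two-sided permutation p = 0.368). CPM are reads scaled to the library's gene-assigned total. TMM normalisation was applied to the CPM of single genes but not to the marker sums given here, so their scales differ. The luminal epithelial markers, 8 of 8, had reads in every library. They summed to 89.8 to 535 CPM in the 5 mg/kg group and 117 to 671 in the 1 mg/kg group. Mammary epithelium was thus present throughout. The B cell markers, also 9 of 9 with reads in every library, ranged far more widely. Their sums ran from 4.13 to 758 in the 5 mg/kg group and from 3.90 to 1143 in the 1 mg/kg group. Adipocyte markers, 8 of 8 with reads throughout, summed to 3038 to 5097 in the first group and 2112 to 5676 in the second. Skeletal muscle markers, also 8 of 8, had the largest sums of the 12 lists. These were 17161 to 40520 in the first group and 19873 to 53123 in the second. No difference between the groups in mean log2 CPM was detected for any of 12 marker lists by exact two-sided permutation (smallest p = 0.0801 for adipocytes, 8.005 ± 0.35 in the 5 mg/kg group against 7.44 ± 0.64 in the 1 mg/kg group, adjusted p = 0.603). In such a bulk tissue, fewer cells of a type and less RNA per cell cannot be told apart.

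Per kilobase of exon, Mbd2 was the most abundant of the 8 genes and Tet1 the least. Mbd2 lay at 13.5 ± 2.03 RPKM (CPM per kilobase of exon, mean ± SD over 12 libraries), above Mbd1 in 12 of 12 libraries. Mbd1 at 4.51 ± 0.54 and Mbd3 at 4.33 ± 0.51 RPKM were neighbours whose ranges overlapped, with Mbd1 higher in 8 of 12 libraries. Tet2 at 2.83 ± 0.38 and Tet3 at 2.59 ± 0.76 RPKM also overlapped, with Tet2 higher in 9 of 12. A gap of 2.73-fold in the means separated Tet3 from Tdg, at 0.947 ± 0.12 RPKM, in 12 of 12 libraries. Mbd4, at 0.821 ± 0.45 RPKM, lay below Tdg in 8 of 12 libraries, and Tet1, at 0.526 ± 0.088 RPKM, lay below Mbd4 in 8 of 12. With the longest transcript as the length in place of all exons, Mbd3 no longer lay consistently above Tet2 (5 of 12 libraries against 12 of 12). Mbd1 then lay above Mbd3 in 12 of 12 libraries and Tet2 above Tet3 in 11 of 12, so these orders depend on the length used.

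**Figure D1:**
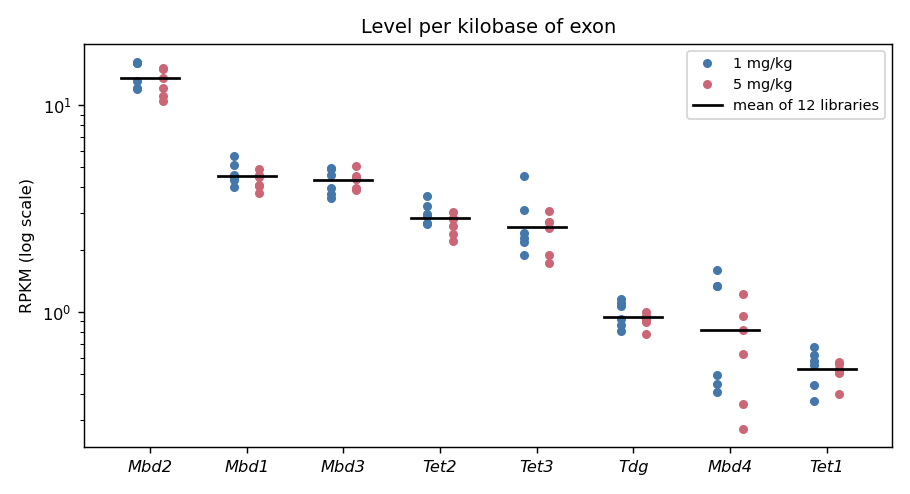
Level of each gene per kilobase of exon (RPKM, log axis) in 12 libraries, ordered by the mean; points are libraries by folic acid group and the line is the mean of 12. Mbd2 stands clear of the rest at 13.5 RPKM, and Mbd4 spreads most, from 0.273 to 1.59 RPKM.

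No difference between the folic acid groups was detected for any of the 8 genes. By edgeR's quasi-likelihood test with Benjamini-Hochberg adjustment over 18647 genes, 0 of 8 passed an adjusted p of 0.05, where 0% of all tested genes passed (smallest adjusted p = 0.943). At an unadjusted p under 0.05 there were 0 of the 8 and 359 of all genes (1.93%). DESeq2 and limma-voom also called 0 genes, with an unadjusted p under 0.05 for 776 of 48171 genes (1.61%) and 361 of 18647 genes (1.94%). Log2 fold changes, positive when higher in the 5 mg/kg group, were negative for 7 of 8 genes, with a median of -0.13, while 52.8% of all tested genes were negative and their median was -0.018. The groups overlapped for all 8, as they did for all but 0.0429% of tested genes.

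Among the oxidizing enzymes, Tet2, a regulator best known from blood cells, had the smallest p. Its level was 37.1, 45.6 and 51.2 CPM (lowest, median and highest of 6) in the 5 mg/kg group and 45.0, 49.6 and 61.2 CPM in the 1 mg/kg group. Replicates 2, 4 and 5 of the 5 mg/kg group lay below every 1 mg/kg library, and the rest overlapped. The log2 fold change was -0.19 ± 0.11 (SE), with a 95% interval from -0.43 to 0.049, an unadjusted p of 0.109 and an adjusted p of 0.943 by edgeR. Tet3, the TET enzyme of the egg and of many adult tissues, was at 28.7, 43.8 and 51.4 CPM in the 5 mg/kg group and 31.5, 39.2 and 75.5 CPM in the 1 mg/kg group. Replicate 6 in the 1 mg/kg group held the highest value and lay well above the next, 51.6 CPM in replicate 1 of the same group. The log2 fold change of Tet3 was -0.16 ± 0.22, and it turned to 0.044 without replicate 6 in the 1 mg/kg group. Tet1, known from embryonic stem cells and germ cells, was detected with 269 to 666 reads per library, at 6.20, 8.07 and 8.82 CPM in the 5 mg/kg group and 5.72, 8.76 and 10.4 CPM in the 1 mg/kg group. Its log2 fold change was -0.074 ± 0.15 and turned to 0.0093 without replicate 5 in the 5 mg/kg group, the library lowest in Tet1 in that group.

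Each TET enzyme's share of TET RNA was computed per library. Of the summed RPKM of the 3 genes, Tet2 made up 47.5 ± 2.49% in the 5 mg/kg group and 48.8 ± 4.45% in the 1 mg/kg group, and Tet1 made up 9.24 ± 0.86% and 8.66 ± 1.24% (SD, n = 6 each). Tet3 made up the rest, from 38.2% in replicate 3 in the 1 mg/kg group to 51.3% in replicate 6 in the 1 mg/kg group. That last library was among those in which Tet3 exceeded Tet2 per kilobase. These shares were not tested, and they depend on the length used. With the longest transcript as length, mean RPKM was 0.566 for Tet1, 5.20 for Tet2 and 3.96 for Tet3. With all exons it was 0.526, 2.83 and 2.59.

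Of the 2 glycosylases, Tdg varied little between libraries and Mbd4 varied widely. Tdg, which acts on the oxidation products of the TET enzymes, was at 4.18, 4.92 and 5.34 CPM in the 5 mg/kg group and 4.32, 5.36 and 6.21 CPM in the 1 mg/kg group, from 202 to 457 reads per library. Its log2 fold change was -0.12 ± 0.12, with a 95% interval from -0.38 to 0.14. Mbd4 was at 1.44, 3.81 and 6.47 CPM in the 5 mg/kg group and 2.15, 4.82 and 8.37 CPM in the 1 mg/kg group, from 65 to 541 reads. Its highest library was 5.82 times its lowest, against 1.49 times for Tdg, and both groups ran from low to high values. The log2 fold change was -0.40 ± 0.45, and the 95% interval from -1.36 to 0.57 was the widest of the 8. The coefficient of variation of Mbd4 over the 12 libraries was 55.1%, which 16.6% of all tested genes exceeded, while those of the other 7 lay between 11.8% and 29.3% and below the median of all tested genes, 29.5%.

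The readers Mbd1 and Mbd2 were slightly lower in mean in the 5 mg/kg group without passing. Mbd1, which recruits histone methylation to methylated DNA, was at 25.1, 28.8 and 32.8 CPM in the 5 mg/kg group and 27.1, 30.5 and 38.1 CPM in the 1 mg/kg group. Its log2 fold change was -0.13 ± 0.10. Mbd2 was at 33.5, 41.0 and 48.6 CPM in the 5 mg/kg group and 38.4, 46.6 and 51.7 CPM in the 1 mg/kg group, with a log2 fold change of -0.14 ± 0.13 and a 95% interval from -0.42 to 0.14. Replicates 4 and 6 of the 5 mg/kg group lay below every 1 mg/kg library. Mbd3 was the only one of the 8 with a positive log2 fold change, 0.030 ± 0.12, at 7.67, 8.74 and 10.1 CPM in the 5 mg/kg group and 7.04, 8.51 and 9.82 CPM in the 1 mg/kg group. That sign turned without replicate 5 in the 1 mg/kg group, the library with the least Mbd3, to -0.020, and with scaling by library size alone, to -0.14. Scaling by library size alone also moved the median of all tested genes, to -0.16, so relative to it Mbd3 stayed slightly higher. The ratio of Mbd2 to Mbd3 RPKM, the exchangeable NuRD subunits, was 2.97 ± 0.59 in the 5 mg/kg group and 3.36 ± 0.68 in the 1 mg/kg group. It ranged from 2.30 in replicate 6 in the 5 mg/kg group to 4.49 in replicate 5 in the 1 mg/kg group.

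**Figure D2:**
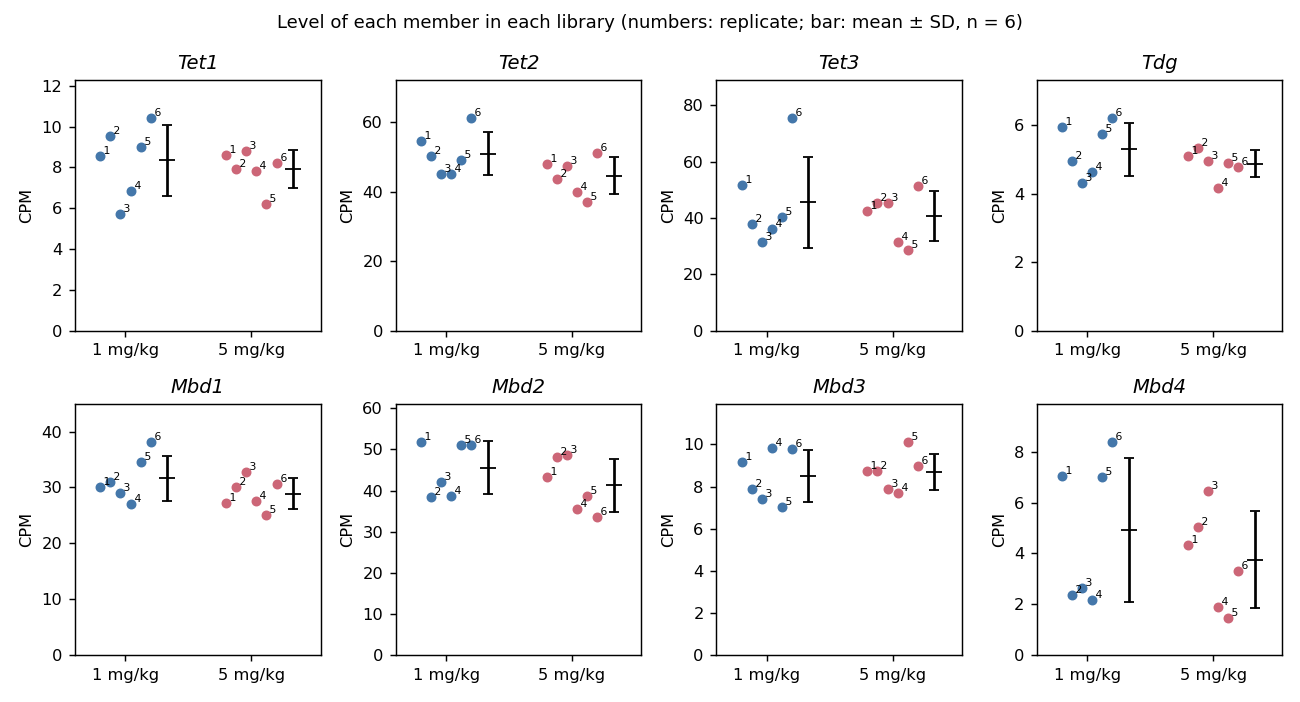
CPM of each gene in each library, from 0 on a linear axis; points are libraries numbered by replicate and bars are the mean ± SD of 6. The groups overlap in every panel, Tet3 is highest in replicate 6 in the 1 mg/kg group (75.5 CPM), and Mbd4 runs from 1.44 to 8.37 CPM.

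The intervals give the range of ratios left possible by the fit. For Tet2, Tdg, Mbd1, Mbd2 and Mbd3 the 95% interval of the 5 over 1 mg/kg ratio lay between 0.741 and 1.22. For Tet1 it ran from 0.758 to 1.19 and for Tet3 from 0.644 to 1.25. For Mbd4 it ran from 0.389 to 1.48.

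The sign of these small differences turned for most of the genes when the adipocyte marker level was added to the fit. With the adipocyte marker level as a covariate, 3 of 8 genes rather than 7 had a negative log2 fold change. Tet1 was then at 0.057, Tet3 at 0.13, Tdg at 0.0033, Mbd2 at 0.037, Mbd3 at -0.0074 and Mbd4 at 0.37, and none passed (edgeR adjusted p = 0.9998 for each). With the B cell level as a covariate 7 of 8 stayed negative, and Mbd4 went from -0.40 to -0.17. The skeletal muscle level as a covariate also left 7 of 8 negative, with Tet3 at -0.068 ± 0.12. With the share of reads outside genes as a covariate, an alternative chosen after seeing the data, 5 of 8 were negative, with Tet1 at 0.040 and Tet3 at 0.089. Over the 12 libraries, Pearson's r between a gene's log2 CPM and the adipocyte level ran from -0.61 for Tet3 to -0.78 for Mbd2 in 6 genes, Tet2, Tet3, Tdg, Mbd1, Mbd2 and Mbd4 (adjusted permutation p from 0.0116 to 0.0445), values that 8.37% to 23.0% of all tested genes reached. Spearman's rho of these 6 ran from -0.59 to -0.85 (adjusted permutation p from 0.00496 to 0.0649). Within the groups r ran from -0.58 to -0.94. Without replicates 4 and 6 of the 1 mg/kg group, the libraries farthest from the median, r ran from -0.36 for Tet3 to -0.76 for Mbd2. Within the 5 mg/kg group, which holds neither of those libraries, the r of Tet3 was -0.71. Tet1 and Mbd3 had r of -0.43 and 0.22 (permutation p = 0.163 and 0.482).

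**Figure D3:**
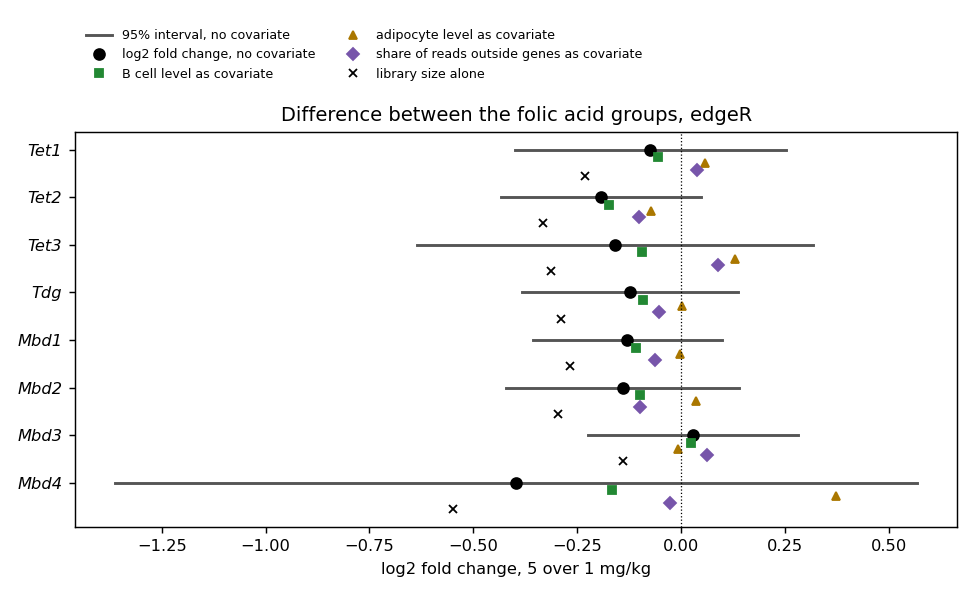
Log2 fold change of each gene, 5 over 1 mg/kg, by edgeR (circle, with its 95% interval as a line) and under 4 alternatives (other symbols). Every interval includes 0, and the adipocyte covariate (triangle) places Tet1, Tet3, Tdg, Mbd2, Mbd3 and Mbd4 on the other side of 0 from the circle.

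Tet2 and Tet3 followed the share of reads that fell outside annotated genes. Such reads lie in introns or between genes. The 3 libraries with the largest share were replicate 6 in the 1 mg/kg group (26.6%), replicate 6 in the 5 mg/kg group (20.8%) and replicate 1 in the 1 mg/kg group (18.7%). They held the 3 highest levels of Tet3 (75.5, 51.4 and 51.6 CPM) and of Tet2 (61.2, 51.2 and 54.6 CPM). The library with the smallest share, replicate 5 in the 5 mg/kg group (5.58%), held the lowest levels of both, 28.7 CPM of Tet3 and 37.1 CPM of Tet2.

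Over the 12 libraries, Pearson's r between the log2 CPM of Tet3 and that share was 0.96 (permutation p = 1e-05, the smallest that 100000 permutations can give, adjusted p = 8e-05) and Spearman's rho was 0.89 (permutation p = 0.00023). For Tet2 the values were 0.93 (permutation p = 1e-05, adjusted p = 8e-05) and 0.92 (permutation p = 0.00012). An r as high as that of Tet3 was reached by 0.3% of all tested genes and one as high as that of Tet2 by 1.20%. Within the groups r was 0.92 and 0.99 for Tet3, and 0.92 and 0.98 for Tet2, at 5 and 1 mg/kg (n = 6 each). Without both replicates 6, the libraries farthest from the median, r was 0.91 for Tet3 and 0.92 for Tet2. Of 16 such relations, 8 genes by 2 measures, these had the smallest p, and the measures were chosen after the data were seen.

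The other members had lower values. Tet1, Tdg, Mbd1 and Mbd4 had r of 0.71, 0.67, 0.77 and 0.68 (adjusted permutation p from 0.0116 to 0.022), values that 8.68% to 13.7% of all tested genes reached. Their rho ran from 0.64 to 0.81 (adjusted permutation p from 0.0065 to 0.053), and r without both replicates 6 from 0.63 to 0.77. The r of Tdg was 0.26 within the 5 mg/kg group and 0.83 within the 1 mg/kg group. Mbd2 and Mbd3 had r of 0.35 and 0.28 (permutation p = 0.273 and 0.377) and rho of 0.36 and 0.091 (permutation p = 0.255 and 0.784). Without both replicates 6, r was 0.69 for Mbd2 and -0.068 for Mbd3. Mbd3 lay at 10.1 CPM in the library with the smallest share and 9.78 CPM in that with the largest. Differences between these correlations were not tested, and the part of RNA quality or cell make-up in them was not tested.

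**Figure D4:**
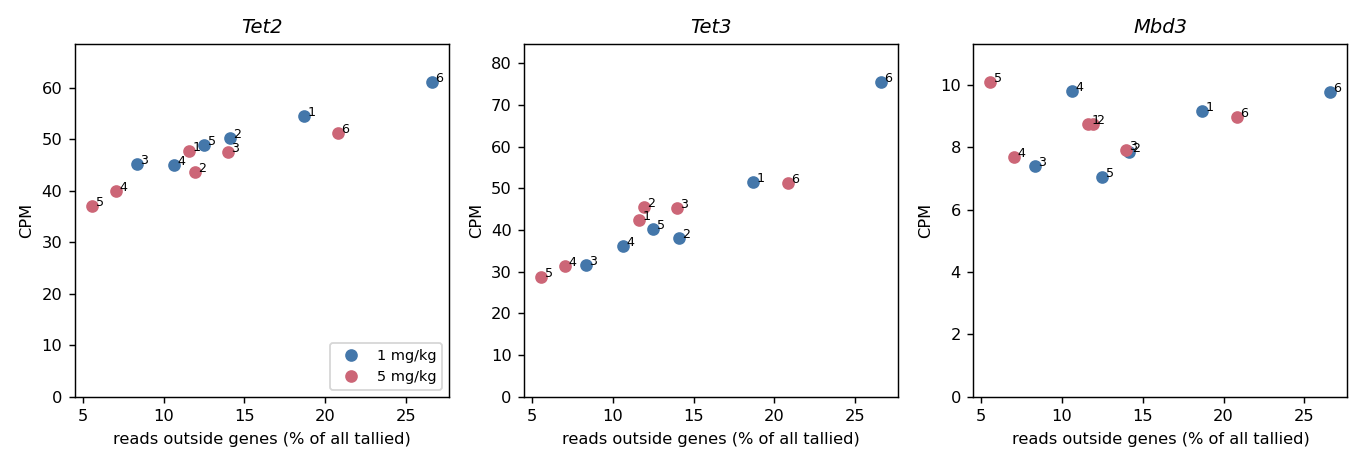
CPM of Tet2, Tet3 and Mbd3 (vertical axes from 0) against the percent of tallied reads outside annotated genes; points are libraries numbered by replicate. Tet2 and Tet3 go from their lowest values at 5.58% to their highest at 26.6%, while Mbd3 shows 10.1 and 9.78 CPM at those ends.

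The levels of the 8 genes were also set beside the B cell content of the libraries. Replicates 1, 2 and 3 in the 5 mg/kg group and 1, 5 and 6 in the 1 mg/kg group had the 6 highest B cell marker levels, 5.15 log2 CPM or more. Replicate 3 in the 1 mg/kg group was at 3.48, while none of the remaining 5 exceeded -0.0079. Mbd4 ran from 4.33 to 8.37 CPM in the 6 high libraries and from 1.44 to 3.30 CPM in the other 6. The range of Mbd2 was 43.4 to 51.7 CPM in the former and 33.5 to 42.1 CPM in the latter. Those 2 of 8 genes did not overlap, with the B-cell-rich libraries above, a share near that of all tested genes, of which 15.8% did the same. Mbd3 ran from 7.04 to 9.78 CPM in the B-cell-rich libraries and from 7.41 to 10.1 CPM in the others. This split follows marker levels and is not a group of the study, so it is given without a test, and the part of lymphoid cells in it was not tested.

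Replicate 6 in the 5 mg/kg group combined a large share of reads outside genes (20.8%) with a low B cell level (-0.94 log2 CPM). Tet3 was among its highest values there, 51.4 CPM, whereas Mbd2 had its lowest value of all 12 libraries, 33.5 CPM. Mbd4, at 3.30 CPM, stayed below every B-cell-rich library but was the highest of the remaining libraries. Replicate 3 in the 1 mg/kg group, with a B cell level of 3.48 log2 CPM, held 2.62 CPM of Mbd4. The part of either measure in these levels was not tested.

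**Figure D5:**
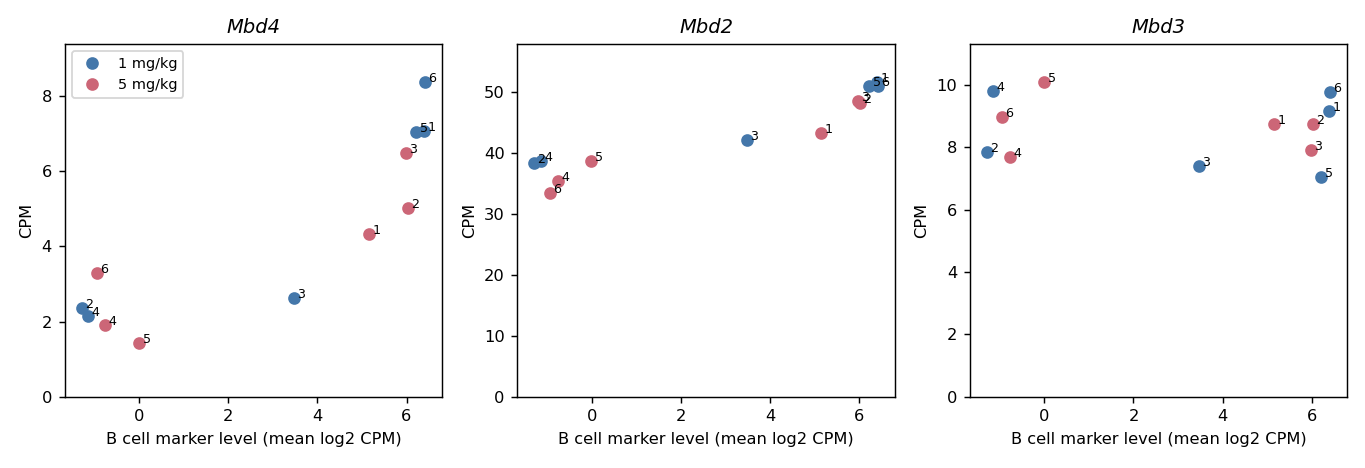
CPM of Mbd4, Mbd2 and Mbd3 (vertical axes from 0) against the B cell marker level (mean log2 CPM of 9 genes); points are libraries numbered by replicate. Mbd4 and Mbd2 are higher in the 6 libraries at 5.15 or more on the horizontal axis than in the other 6, and Mbd3 is not.

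Within the 6 B-cell-rich libraries, Mbd4 was at 5.27 ± 1.09 CPM in the 5 mg/kg group and 7.48 ± 0.77 CPM in the 1 mg/kg group (SD, n = 3 each), with no overlap. Tet2 (46.3 ± 2.30 against 54.9 ± 6.11 CPM), Tdg (5.13 ± 0.20 against 5.98 ± 0.23 CPM) and Mbd2 (46.7 ± 2.90 against 51.3 ± 0.36 CPM) did not overlap either. Thus 4 of 8 genes had all 3 of the 5 mg/kg libraries below all 3 of the 1 mg/kg libraries, where 13.6% of all tested genes did. In the other 6 libraries 0 of 8 genes did, where 2.49% of tested genes did, and Mbd4 was at 2.21 ± 0.97 and 2.38 ± 0.23 CPM. With 3 against 3, an exact two-sided permutation test cannot go below p = 0.1. In the same B-cell-rich libraries the B cell level was 5.15 to 6.02 in the 5 mg/kg group and 6.22 to 6.42 in the 1 mg/kg group. The adipocyte level was 7.69 to 7.71 and 6.73 to 7.24, and reads outside genes made up 11.6% to 14.0% and 12.5% to 26.6%. Intake and these measures cannot be told apart there.

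The genes whose profiles over the 12 libraries were most like the members were found by the root mean square (RMS) difference of standardised log2 CPM, where 0 is the same profile. For Tet2 the nearest were Baz2b, at an RMS difference of 0.233, and Ino80d (0.248), and for Tet3 they were C2cd5 (0.189) and Baz2a (0.196). For Tet1 they were Mtcp1 (0.367) and Fam193b (0.432), and for Mbd1 they were Tbx6 (0.306) and Ccdc15 (0.381). Baz2a and Baz2b encode bromodomain proteins with an MBD-like domain. For Mbd4 the nearest were Slc17a9, a vesicular nucleotide transporter (0.131), and Kif20b, a mitotic kinesin (0.149). For Mbd2 they were the ribosomal protein gene Rpl30 (0.151) and Sdad1 (0.154), which acts in ribosome assembly. For Tdg they were the splicing factor Tra2b (0.337) and the checkpoint kinase Atr (0.339). Mbd3 had the most distant nearest gene, Rbks, the ribokinase, at 0.535. Among pairs of the 8 genes, Tet2 and Tet3 were the nearest (0.491), followed by Mbd2 and Mbd4 (0.55), and Mbd1 and Mbd3 were the most distant (1.57). More than 1% of the genes compared were nearer than the partner in both of those nearest pairs. The nearest 1% lay within 0.427 for Tet2, 0.396 for Tet3, 0.321 for Mbd2 and 0.243 for Mbd4.

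No gene of the surrounding pathways passed the test either, 0 of 58 tested in 5 lists in both directions, where 0% of all genes passed. Of 11 tested genes that supply or assist the TET enzymes, 8 were higher in the 5 mg/kg group, with a median log2 fold change of 0.23. Idh2, the mitochondrial isocitrate dehydrogenase that makes 2-oxoglutarate, was at 84.1 ± 49.8 CPM in the 5 mg/kg group and 52.6 ± 18.3 CPM in the 1 mg/kg group (log2 fold change 0.68 ± 0.36). Replicates 5 and 4 of the 5 mg/kg group held its highest values, 162 and 132 CPM, and the groups overlapped. In the same direction were Idh3g (0.56 ± 0.36) and Idh3a (0.58 ± 0.40), subunits of the NAD-dependent enzyme. The skeletal muscle level of those replicates was 11.6 and 11.2 log2 CPM, the highest of that group, and the brown fat level 5.92 and 5.51, the highest of all 12, and the part of these tissues was not tested.

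Of 12 other methyl-DNA readers and MBD1 partners, 10 were lower in the 5 mg/kg group, with a median of -0.17. Uhrf2, which binds hydroxymethylated DNA, was at 25.9 to 33.7 CPM in the 5 mg/kg group and 29.5 to 41.8 CPM in the 1 mg/kg group (log2 fold change -0.26 ± 0.11, unadjusted p = 0.0328 and adjusted p = 0.943 by edgeR). Baz2b was at -0.25 ± 0.16 and the MBD1 partner Atf7ip, the most abundant gene of the list, at -0.27 ± 0.21.

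Of 13 genes of the NuRD complex, 9 were lower, with a median of -0.053. Its ATPase Chd4, at 184 CPM the most abundant, was at -0.034 ± 0.12, Gatad2b, which bridges MBD2 or MBD3 to it, at -0.17 ± 0.12, and Cdk2ap1 at 0.31 ± 0.15. Of 18 genes of base excision repair and deamination, 11 were lower, with a median of -0.062. The stress-induced Gadd45g and Gadd45b, linked to active demethylation, were at -0.52 ± 0.38 and -0.46 ± 0.34. Apobec2, a deaminase relative abundant in muscle, had the highest level, 138 CPM, and was at 0.11 ± 0.47. Of 4 DNA methyltransferases 3 were lower, with a median of -0.13, the de novo enzyme Dnmt3a at -0.16 ± 0.093. The exception, Dnmt3l, had a mean of only 0.316 CPM and was at 0.62 ± 0.56. The vitamin C transporter Slc23a1 (1 to 17 reads per library) was too low to test.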

How the data were processed

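RNA was sequenced from 12 mammary fat pad libraries. The authors deposited raw read counts per Ensembl gene, with STAR alignment to mm10 and HTSeq 0.6.1 counting named in the submitters' processing notes. For the STAR version, the annotation and the strand setting, the sources used here give nothing. Per the labels' protocols, libraries were made with a kit that the labels name as TruSeq v2. The 5 tally lines per file, 16.7% to 35.7% of reads, stayed out of library sizes. The share of reads outside genes is the no-feature tally over all reads tallied. Of 55487 IDs, 55227 had a symbol in GENCODE vM21 (GRCm38).

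Counts were filtered with filterByExpr, scaled by TMM and tested in edgeR 4.0.16 (R 4.3.3) with the robust quasi-likelihood F-test, without covariates. The Benjamini-Hochberg threshold was 0.05. SEs were derived from the F statistic. CPM use TMM factors, RPKM divide CPM by all exonic kilobases, and log2 CPM use a prior count of 2. Marker sums use no TMM factors. Marker levels are mean log2 CPM. Genes of the pathway lists named were the 2 with the smallest p and the most abundant, and the 2 nearest profiles per member came from protein-coding genes with a mean of at least 1 CPM. Not all of those are given, and some genes of the lists are not reported here. Members and lists were chosen with earlier results of these data known. Alternatives used DESeq2 1.42.0, limma 3.58.1, other scalings and filters, covariates, and each library left out.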

Additional observations from a re-analysis of the deposited data

Results flagged for a closer look

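Dnmt3l, the catalytically inactive partner of the de novo methyltransferases, had 1 library far from the others in each group. It was at 0.974 CPM in replicate 5 at 5 mg/kg, where the others lay between 0.177 and 0.379 CPM, and at 0.698 CPM in replicate 4 at 1 mg/kg, where the others lay between 0.101 and 0.251 CPM. In all, 82 groups of 6 values were checked in this way, and chance flags about 1 in 20. No value of the 8 member genes stood apart from its group by this measure.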

How the results depend on the processing

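Under 24 alternatives, 12 of them leaving out 1 library each, 0 genes and 0 of the 8 members were called, also at an adjusted p of 0.1. Of 192 log2 fold changes of members under alternatives, 180 kept their sign and 12 turned. With the adipocyte level as covariate these were Tet1 (0.057), Tet3 (0.13), Tdg (0.0033), Mbd2 (0.037), Mbd3 (-0.0074) and Mbd4 (0.37). With the share of reads outside genes as covariate they were Tet1 (0.040) and Tet3 (0.089), and with library size alone Mbd3 (-0.14). Leaving out 1 library turned 3 values, and the ranges were -0.15 to 0.0093 for Tet1, -0.24 to 0.044 for Tet3 and -0.020 to 0.082 for Mbd3. The cause was not tested. The smallest unadjusted p of a member in any setting was 0.0611. Genes at an unadjusted p under 0.05 numbered 359 at first, 170 with library size alone, 1677 of 48208 without a filter and 846 with the B cell level. They numbered 200 without replicate 4 at 5 mg/kg and 1445 without replicate 4 at 1 mg/kg. With the longest transcript as length, RPKM moved to 5.20 for Tet2, 3.96 for Tet3, 1.45 for Tdg, 7.72 for Mbd1, 22.2 for Mbd2, 5.17 for Mbd3, 1.20 for Mbd4 and 0.566 for Tet1. No paired analysis was possible because the replicate numbers were given by record order and pair no samples. Mbd4 had the fewest reads of the 8 genes, 65 in its lowest library.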
